A study of Hynobius leechii and Hynobius unisacculus and Hynobius quelpaertensis with 23 samples.

Results

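Keratins are the intermediate filament proteins of epithelial cells, and all gene rows whose symbol was KRT followed by a number and at most 1 letter were taken as members of the family. There were 85 such rows among the 49173 named rows of 6 count tables, and they carried 32 distinct symbols out of 13514. Polyadenylated RNA had been sequenced from 23 tissue libraries of 15 wild-caught, untreated adult Hynobius salamanders from Korea, in a study of genetic diversity between species. Each lineage had its own table. H. leechii made up the HC1, HC3 and LE tables, H. quelpaertensis the QU table, H. unisacculus the UN table and H. yangi the YA table. All 15 animals gave a liver, with 3 each in HC1, HC3 and LE and 2 each in QU, UN and YA. HC1, LE, QU, UN and YA each had 1 intestine, and HC1, HC3 and UN each had 1 skin, in every case from an animal that also gave a liver. Libraries are named here by table, tissue and animal number.

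A keratin filament is built from pairs of chains, a type I chain with a type II chain, so an epithelial cell needs genes of both types. In mammals simple epithelia such as those of liver and intestine use KRT8 with KRT18, ducts add KRT7 and KRT19, and gut epithelium adds KRT20. The basal layer of mammalian epidermis uses KRT5 with KRT14 and KRT15, its upper layers use KRT1, KRT2 and KRT10, and KRT6, KRT16 and KRT17 are known from appendages and stressed or healing skin. The roles given below for each symbol are those of the mammalian gene of that name. Whether a row is the salamander counterpart of that gene was not tested, because no sequences were used here, and for the same reason none are shown.

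The values are raw read counts, given below as counts per 1000000 counts of the library's named rows (CPM). Liver libraries held 8672566 to 19281948 counts, intestine libraries 1703075 to 3390245 and skin libraries 2552636 to 4628175. Each of the 6 animals sampled for several tissues had a liver in which 43.0% to 51.4% of the values from 1 to 19 were odd, against 11.3% to 22.5% for the other 17 libraries. These 6 livers are called odd-count livers. Markers of keratinocytes other than keratins summed to 21453 to 35157 CPM in skin and 43.6 to 1386 CPM in liver. Those of hepatocytes summed to 32195 to 248134 CPM in liver, 71.1 to 9321 CPM in intestine and 68.2 to 15323 CPM in skin. Both lists told skin from liver as labelled. Enterocyte and goblet markers overlapped, at 6501 to 20918 CPM in intestine, 7.49 to 10173 CPM in liver and 872 to 14757 CPM in skin. Each intestine still exceeded the livers of its own table. The HC3 skin also held MUC2, a secreted mucin of goblet cells, at 5639 CPM and FGB, a fibrinogen chain, at 14685 CPM. That FGB value was close to the whole hepatocyte marker sum of this skin, 15323 CPM. HC3 livers mms7660, mms7661 and mms7662 had hepatocyte marker sums of 133564, 179627 and 210349 CPM. Liver symbols as a set were thus far lower in this skin than in those livers. The HC1 intestine held SFN, an epithelial 14-3-3 protein, at 19835 CPM, most of its keratinocyte marker sum of 24999 CPM. In bulk tissue fewer cells of a type and less RNA per cell cannot be told apart.

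The tables differed in which keratins they held. HC1 listed 22, UN 18, HC3 17, LE 15, YA 7 and QU 6. KRT5, KRT6A, KRT8 and KRT19 were in all 6 tables, no symbol was in 5, and KRT17, KRT18, KRT20 and KRT24 were in 4. There were 7 symbols in 3 tables, 7 in 2 and 10 in 1. Of the symbols, 17 were type I, on 43 rows, and 15 were type II, on 42 rows. The 3 tables with a skin library were also those with the most keratin rows.

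The keratin family as a whole was highest in skin, lower in intestine and lowest in liver, with no overlap between the 3 tissues. The summed keratins took 4.47% of the counts of the HC1 skin, 3.70% of the HC3 skin and 4.11% of the UN skin. They came to 40950.3 ± 3868 CPM in skin (SD, n = 3), 8336 ± 3162 CPM in intestine (SD, n = 5) and 1118 ± 423 CPM in liver (SD, n = 15). The lowest skin stood at 37005 CPM, intestines ran from 4791 to 12435 CPM, and livers ran from 437 to 1929 CPM. The sums add rows of different tables, and their tissues share tables and animals, so no test was made on them.

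Type II keratins made up most of the difference from the mean of the livers in the 3 skins and in 4 of the 5 intestines, UN being the exception. Type II sums were 41108 CPM in the HC1 skin, 33634 CPM in the HC3 skin and 36818 CPM in the UN skin, which was 34.0, 34.8 and 92.7 times the highest liver of the same table. In intestine they were 10066 CPM in HC1, 5421 CPM in LE, 12008 CPM in QU, 2064 CPM in UN and 6928 CPM in YA. These were 8.34, 6.45, 9.30, 5.20 and 8.88 times the highest liver of the table. Type II keratins thus stood above every liver in 3 of 3 skins and in 5 of 5 intestines.

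Type I keratins followed the same order by mean, but intestines and livers overlapped. Over all tables intestines ran from 426 to 2727 CPM and livers from 44.0 to 963.8 CPM. Ratios to the highest liver were below those of type II in each skin and intestine. Type I sums were 3628, 3370 and 4293 CPM in the HC1, HC3 and UN skins, or 11.9, 3.50 and 7.65 times the highest liver of the table. In intestine they were 635 CPM in HC1, 836 CPM in LE, 426 CPM in QU, 2727 CPM in UN and 570.2 CPM in YA, which was 2.08, 1.08, 1.49, 4.86 and 1.20 times the highest liver of the table. The ratio of type II to type I counts, which is not corrected for transcript length, was close among skins, at 8.58 to 11.3. It ran from 0.757 in UN to 28.2 in QU among intestines and from 0.217 to 18.7 among livers. In UN the intestine and both livers held fewer type II than type I counts. Scaled by library totals, as CPM are, the middle tested gene was also higher in intestine than in liver. Its shift on the log2 scale was 0.53 in LE, 1.16 in QU and 0.44 in YA. The type I ratios to the liver mean, which are linear and so not on that scale, were 1.74, 2.44 and 1.30. The type I order in these tables is thus not shown to be particular to keratins. In the HC1 and UN intestines the shifts were 0.64 and 0.46, with type I ratios of 3.37 and 5.93, larger than in LE, QU and YA. For the HC1, HC3 and UN skins the log2 shifts were 0.76, 1.45 and 1.28, and the linear type I ratios to the liver mean were 19.2, 4.74 and 9.33. Part of the type I difference in skin was thus shared with the middle gene, most so in HC3.

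**Figure D1:**
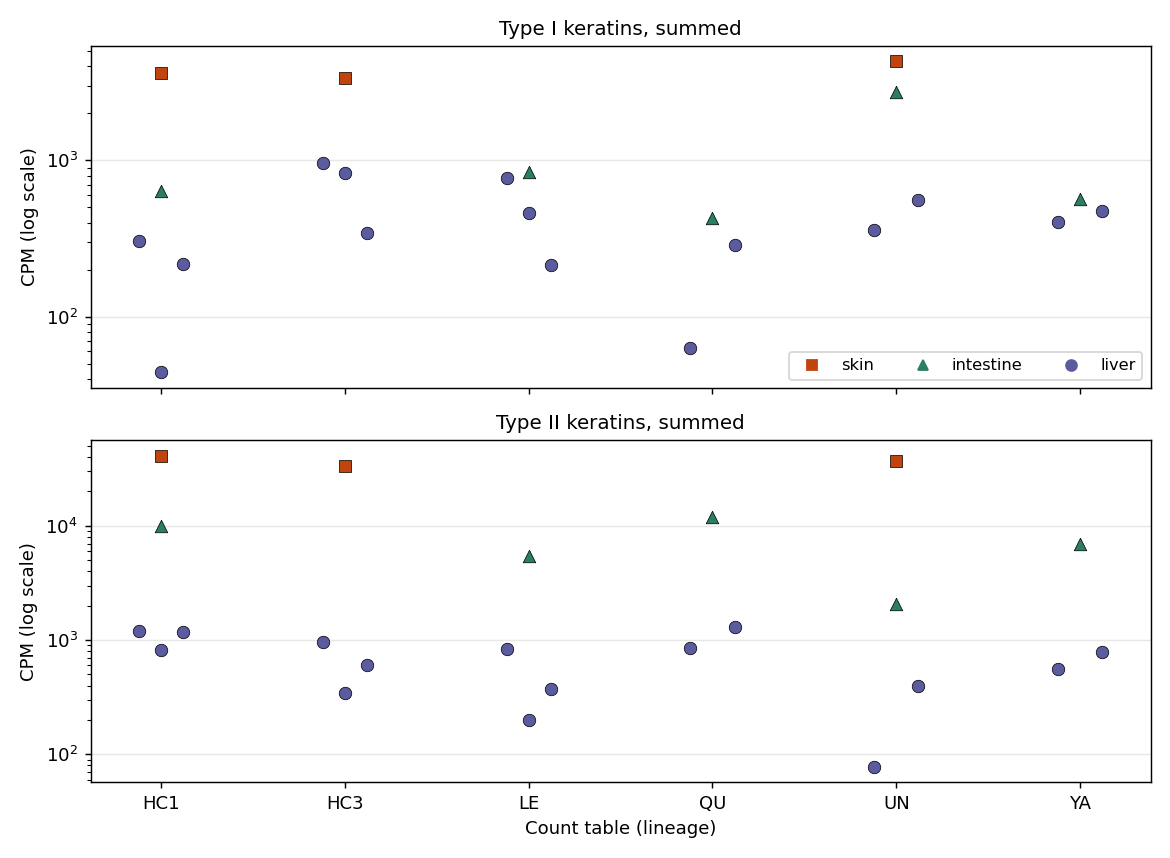
Summed CPM of type I keratins (upper panel) and type II keratins (lower panel) on a log scale, with 1 point per library, grouped by table, and squares for skin, triangles for intestine and circles for liver. Type II sums of the 3 skins lie between 33634 and 41108 CPM, above every intestine, and every intestine lies above the livers of its own table.

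Of the basal keratins, KRT5 was in all 6 tables. In skin KRT5 stood at 2949 CPM in HC1, 10860.1 CPM in HC3 and 3.48 CPM in UN. In HC1 it was at 8.12 CPM in the intestine and at 3.23, 0.119 and 6.05 CPM in livers mms7664, mms7665 and mms7666, so the skin was 487 times the highest liver. In HC3 the livers mms7660, mms7661 and mms7662 held 1.34, 0.107 and 0.623 CPM, and the skin was 8091 times the highest. The HC1 and HC3 skins therefore stood far above every other library of their tables, while in UN the 12 counts of the skin and the 0.375 CPM of the higher liver were both near nothing. In the tables without skin KRT5 was present in intestine and liver, at 597 CPM in the LE intestine and 163, 37.2 and 42.2 CPM in livers mms7728, mms7729 and mms7730. In QU it was lower in the intestine, at 34.6 CPM, than in livers mms7722 and mmsX002, at 62.9 and 93.8 CPM. In YA it was at 17.1 CPM in the intestine and 6.47 and 61.7 CPM in livers mms7700 and mms7701. The UN intestine held 2.003 CPM and liver mms7712 none. KRT14, which pairs with KRT5, was at 105 CPM in the HC3 skin against 1.66 to 14.7 CPM in its livers, and at 2.16 CPM or less in HC1. KRT15 was at 34.8 CPM in the UN skin and at 392 CPM in the QU intestine, where livers held 63.0 and 282 CPM.

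KRT6C, a type II keratin of stressed epidermis, was higher in skin than in any other library in each of the 3 skin tables, as KRT4, KRT5 and KRT13 also were. Its skin levels were 34.4 CPM in HC1, 15286 CPM in HC3 and 13889 CPM in UN. Other HC1 libraries held 0.903 CPM or less, the UN intestine 5.34 CPM and the UN livers 0 and 0.125 CPM. In HC3 livers mms7660, mms7661 and mms7662 held 64.4, 0.0535 and 27.7 CPM, so the skin was 237 times the highest of them. The levels in the skins themselves lay far apart between HC1 and the other tables.

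KRT6A, its close relative, showed no such pattern. In HC3 it was at 2014 CPM in skin and 657, 231 and 412 CPM in livers mms7660, mms7661 and mms7662, so the skin was higher but the livers were not low. In UN it was at 58.3 CPM in skin, 73.5 CPM in intestine and 5.55 and 12.1 CPM in livers mms7712 and mms7714. In YA it was at 413 CPM in intestine and 111 and 272 CPM in livers mms7700 and mms7701. KRT6A stayed at 5.42 CPM or less in every library of HC1, LE and QU. KRT6B, found in HC3 alone, was at 7.05 CPM in skin. The human genes KRT6A, KRT6B and KRT6C are near-identical copies. Whether these rows are as alike, and whether reads were split between them, was not tested, so their separate values are uncertain. HC3 liver mms7661 held 4317, 0 and 1 counts of KRT6A, KRT6B and KRT6C, and the HC3 skin 5140, 18 and 39020.

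KRT17, a type I keratin of appendages, was at 2808 CPM in the UN skin, 355 CPM in the UN intestine and 11.4 and 305 CPM in UN livers mms7712 and mms7714. In LE it was at 19.8 CPM in the intestine and 3.23, 2.98 and 0.345 CPM in livers mms7728, mms7729 and mms7730, and in YA at 50.1 CPM against 10.4 and 0.265 CPM in livers mms7700 and mms7701. In HC1 no library exceeded 3.61 CPM. The highest library was thus the skin in UN and the intestine in HC1, LE and YA. KRT16 went the other way in places, with 26.8 and 15.7 CPM in HC1 livers mms7666 and mms7664 beside 15.3 CPM in skin, 3.63 CPM in liver mms7665 and 1.81 CPM in intestine. In LE it was at 23.9, 3.97 and 1.67 CPM in livers mms7728, mms7729 and mms7730 and at 1.02 CPM in the intestine, and in YA at 18.4 and 8.28 CPM in livers and 6.78 CPM in the intestine. KRT79, found in hair canals in mouse, was at 12036 CPM in the UN skin, 18.03 CPM in the UN intestine and 0 and 2.06 CPM in the UN livers, and at 0.784 CPM or less in HC3. KRT1, KRT2, KRT9 and KRT10, keratins of the upper epidermis or of palms and soles, reached at most 30.2 CPM in any library, for KRT1 in the HC1 intestine.

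The keratins that mammals use in cornea, mouth and oesophagus varied between tables, and KRT4 and KRT12 were far higher in the HC1 skin than in the UN skin. KRT4 stood at 2777 CPM in the HC1 skin, from 12852 counts, against 4 counts in the HC1 intestine and none in the 3 HC1 livers. With 3 counts as the limit that a count of 0 allows in a library, the skin was at least 8028-fold higher than those livers. In the HC3 and UN skins KRT4 was at 4.70 and 2.32 CPM, and in no other library of those tables was it above 1.45 CPM. KRT12, the cornea keratin, was at 3074 CPM in the HC1 skin, 200.4 CPM in the HC1 intestine and 216, 14.2 and 129 CPM in HC1 livers mms7664, mms7665 and mms7666. It stayed at 18.3 CPM or less in LE and at 3.34 CPM or less in UN, where the skin held 2.90 CPM.

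KRT13, the type I partner of KRT4, was at 2533 CPM in the HC3 skin and 21.7, 2.09 and 13.2 CPM in HC3 livers mms7660, mms7661 and mms7662. In HC1 it was at 339.7 CPM in skin, 137 CPM in intestine and 61.8, 9.45 and 32.5 CPM in livers mms7664, mms7665 and mms7666. In UN skin and intestine were alike at 27.6 and 24.7 CPM, over 4.83 and 5.93 CPM in the livers. The skin was therefore the highest library for KRT13 in all 3 tables, by a wide margin in HC3 and a narrow one in UN. KRT24 reached 32.0 CPM in the skin of HC1 and 16.5 CPM in that of HC3, where other libraries held 2.71 CPM or less, while in UN skin and intestine held 24.96 and 30.05 CPM against 9.83 and 7.12 CPM in livers. In LE it was at 16.3 CPM in the intestine and 17.6, 3.75 and 0 CPM in the livers. KRT75, a hair follicle keratin, was at 5443 CPM in the HC3 skin and 225, 109 and 164 CPM in its livers. In UN it was at 5369 CPM in skin, 13.7 CPM in intestine and 0.220 and 60.6 CPM in livers, and in HC1 it was at 0.903 CPM or less, with none in skin. KRT76, a keratin of the hard palate, was at 4205 CPM in the UN skin, 20.4 CPM in the UN intestine and 1.48 and 83.6 CPM in UN livers mms7712 and mms7714. In HC1 the skin held 2.16 CPM of KRT76, from 10 counts, and the other libraries 0.231 CPM or less.

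**Figure D2:**
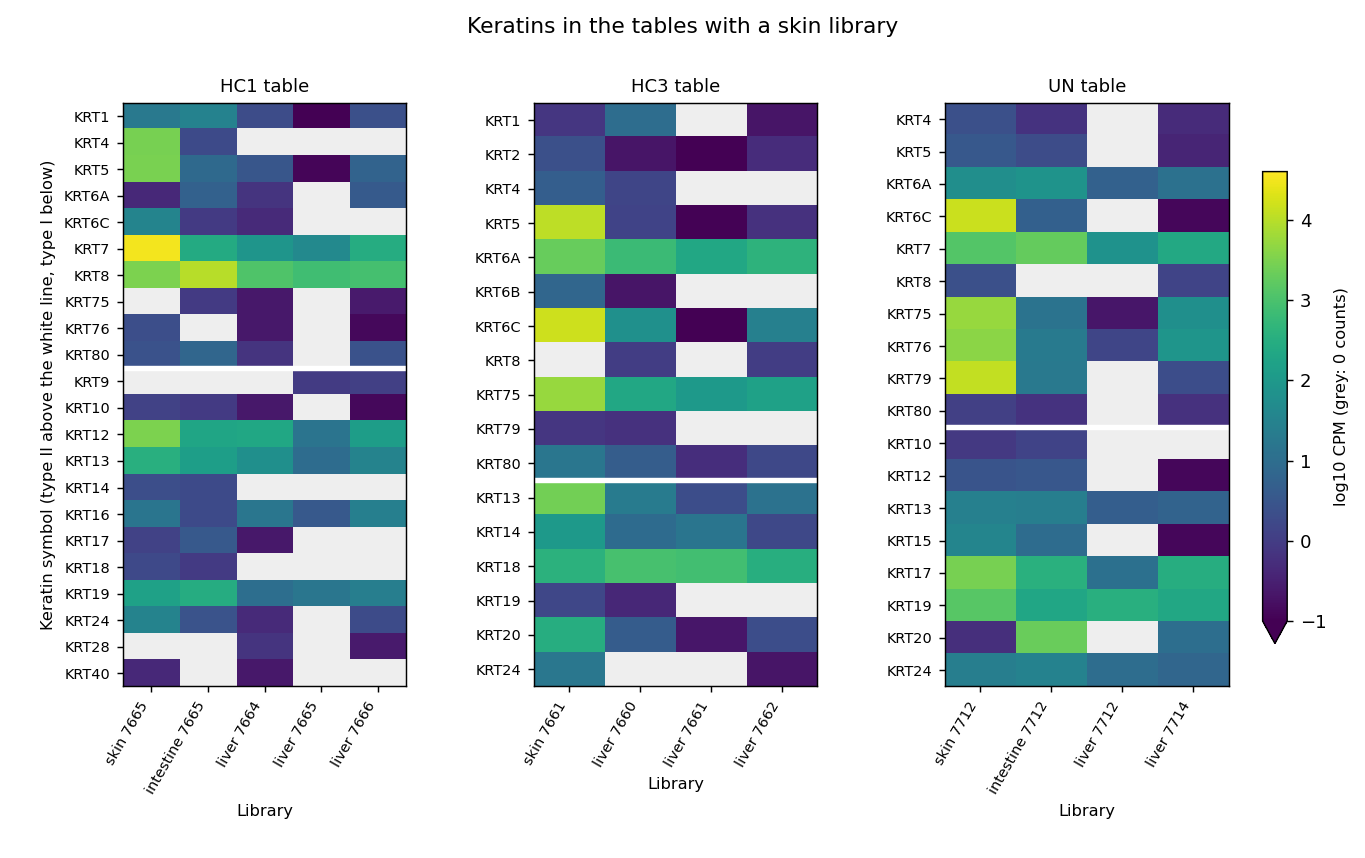
Keratin levels as log10 CPM in every library of the 3 tables with skin, with rows for symbols, type II above the white line and type I below it, columns for libraries, and grey for 0 counts. KRT7 is brighter in the HC1 skin (32222 CPM) than in other HC1 libraries, and KRT6C is brighter in the HC3 skin (15286 CPM) and the UN skin (13889 CPM) than in other libraries of those tables.

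Among the simple epithelial keratins, KRT8 was highest in intestine in 4 tables. It stood at 9747 CPM in the HC1 intestine, 4817 CPM in the LE intestine, 11972 CPM in the QU intestine and 6498 CPM in the YA intestine. In HC1 livers mms7664, mms7665 and mms7666 it was at 1118, 777 and 874 CPM and in skin at 3102 CPM. In LE livers mms7728, mms7729 and mms7730 it was at 667, 162 and 329 CPM, in QU livers mms7722 and mmsX002 at 785 and 1197 CPM, and in YA livers mms7700 and mms7701 at 436 and 446 CPM. The intestine stood at 10.6, 12.5, 12.1 and 14.7 times the mean of the livers in HC1, LE, QU and YA, and above each of them. In HC3 and UN, KRT8 had at most 22 counts in a library. It was at 1.03, 0 and 1.04 CPM in HC3 livers mms7660, mms7661 and mms7662, at 1.37 CPM in UN liver mms7714 and 2.32 CPM in the UN skin, and absent from the HC3 skin, the UN intestine and UN liver mms7712.

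KRT18, the type I partner of KRT8, was in 4 tables and was high in HC3. There it stood at 928, 808 and 328 CPM in livers mms7660, mms7661 and mms7662 and at 403 CPM in skin. In LE it was at 34.0 CPM in the intestine and 4.06, 5.96 and 2.65 CPM in livers mms7728, mms7729 and mms7730. In HC1 and YA it was at 1.73 CPM or less. HC3, the table with the highest KRT18, was one where KRT8 was near 0, and KRT18 was at 34.0 CPM or less in the 3 other tables that listed both.

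KRT19, a keratin of ducts and simple epithelia, was in the LE and YA intestines at 1.07 and 1.10 times the highest liver. It was at 751 CPM in the LE intestine against 701, 438 and 208 CPM in livers mms7728, mms7729 and mms7730, and at 512 CPM in the YA intestine against 372 and 465 CPM in livers mms7700 and mms7701. Against the liver of the same animal, KRT19 was at 3.61 times in the LE intestine and 1.10 times in the YA intestine. Both of those livers are odd-count livers, unlike the intestines, and the LE one was the lowest liver of its table. In HC1 it was at 286 CPM in the intestine, 160.3 CPM in skin and 10.6, 15.8 and 25.3 CPM in livers mms7664, mms7665 and mms7666, so the intestine was 11.3 times the highest liver. In UN it was highest in skin, at 1393 CPM, with 201 CPM in the intestine and 333 and 232 CPM in livers mms7712 and mms7714. HC3 and QU held 7.05 CPM or less. KRT7, also of ducts, was in 2 tables. It stood at 32222 CPM in the HC1 skin, 264 CPM in the HC1 intestine and 82.2, 42.9 and 287 CPM in livers mms7664, mms7665 and mms7666. In UN its order was reversed between skin and intestine, at 1252 and 1929.7 CPM, with 70.6 and 236 CPM in livers mms7712 and mms7714. The HC1 skin was 112 times the highest HC1 liver, and KRT7 took 72.0% of its keratin counts, with no correction for length.

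KRT20, the gut keratin, was at 2102 CPM in the UN intestine, 0.580 CPM in the UN skin and 0 and 10.4 CPM in UN livers mms7712 and mms7714, so the intestine was 202 times the higher liver. In QU it was at 27.0 CPM in the intestine and 0.311 and 0.375 CPM in livers. In LE the intestine held none, and the livers held 0.832, 2.21 and 0 CPM. In HC3 it was at 311 CPM in skin and 4.34, 0.214 and 2.08 CPM in livers mms7660, mms7661 and mms7662. In that skin the gut symbols MUC2 and VIL1 were at 5639 and 260 CPM, against 8.86 and 1.30 CPM in the HC1 skin. The whole list of enterocyte and goblet markers summed to 14757 CPM there, and to 872 and 1697 CPM in the HC1 and UN skins. It summed to 10173, 3662 and 2744 CPM in HC3 livers mms7660, mms7661 and mms7662. Against these livers, members of the list went both ways. The part of these symbols in the KRT20 value was not tested. KRT80 was at 16.1 CPM in the HC3 skin and 4.54, 0.535 and 1.66 CPM in its livers, at 7.22 CPM in the HC1 intestine, 2.59 CPM in the HC1 skin and 0.692, 0 and 2.58 CPM in HC1 livers, and at 1.16 CPM or less in UN. KRT23, KRT27, KRT28, KRT36, KRT40, KRT71 and KRT73, of which all but KRT23 are hair or root sheath keratins in mammals, were in 1 table each and reached at most 5.83 CPM, for KRT71 in LE liver mms7728.

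**Figure D3:**
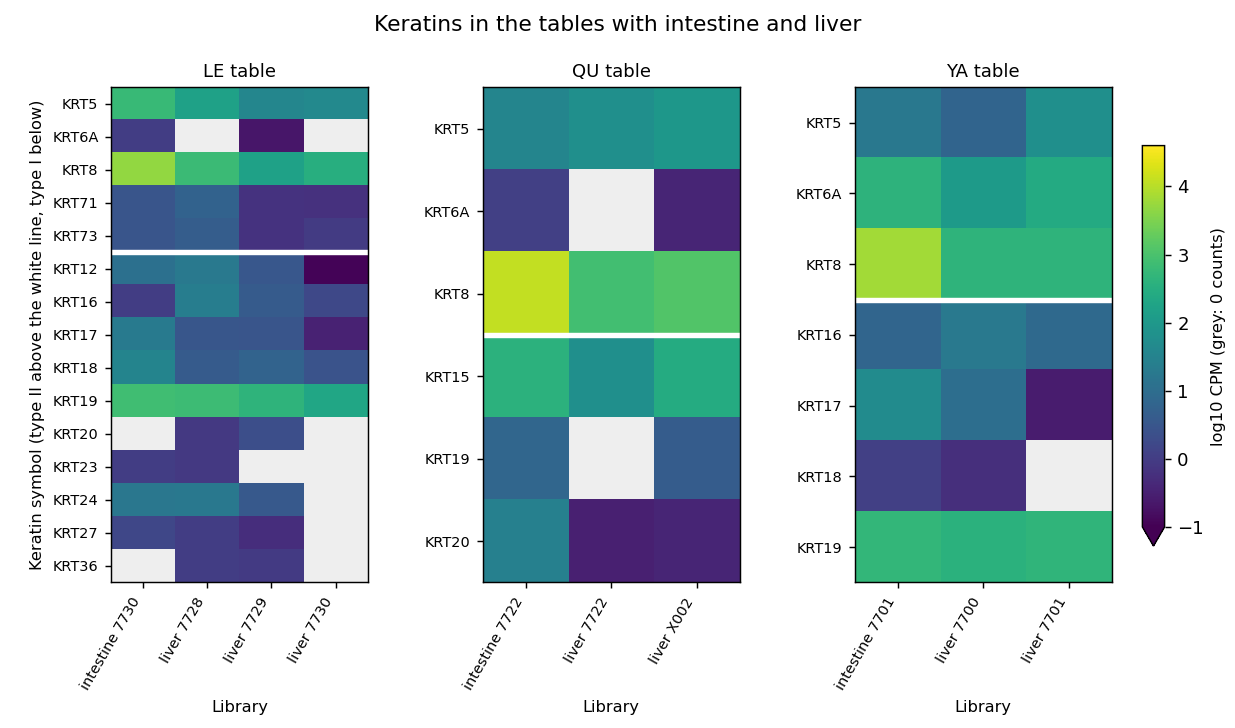
Keratin levels as log10 CPM in every library of the LE, QU and YA tables, with rows for symbols, type II above the white line and type I below it, columns for libraries, and grey for 0 counts. KRT8 is brighter in each intestine, at 4817, 11972 and 6498 CPM, than in the livers of its table, and KRT19 is bright in intestine and liver alike in LE and YA.

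The skin stood above every liver of its table for 17 of 22 keratins in HC1, 14 of 17 in HC3 and 17 of 18 in UN, where 54.7%, 67.5% and 69.1% of all rows did. The intestine did so for 15 of 22 in HC1, 8 of 15 in LE, 5 of 6 in QU, 14 of 18 in UN and 5 of 7 in YA, against 53.9%, 55.5%, 73.1%, 54.4% and 57.5% of all rows. In the HC1, HC3 and UN skins and the HC1 and UN intestines, the share of keratins was thus above that of all rows. In LE the shares were near each other, and the 6 keratins of QU and 7 of YA are too few to tell them apart. With so few libraries most rows pass such a rule, and a stricter one was used as well. A keratin was given to a tissue within a table when that tissue reached 10 CPM and at least 4 times every other library of the table, with the mean of the livers taken for liver. In HC1, KRT4, KRT5, KRT6C, KRT7, KRT12 and KRT24 were skin-high, 6 of 22 keratins, against 2.10% of all rows of the table. In UN, KRT6C, KRT17, KRT19, KRT75, KRT76 and KRT79 were skin-high, 6 of 18, against 4.36% of all rows. In HC3, which has no intestine to compare with, KRT5, KRT6C, KRT13, KRT14, KRT20, KRT24 and KRT75 were skin-high, 7 of 17, against 18.4% of all rows. KRT6C was skin-high in all 3 tables, KRT5 and KRT24 in HC1 and HC3, and KRT75 in HC3 and UN. The skin shares of keratins lay above those of all rows in each table, most in HC1 and UN.

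Fewer keratins were given to intestine. KRT8, KRT17 and KRT18 were intestine-high in LE, 3 of 15 keratins against 10.1% of all rows, KRT8 and KRT20 in QU, 2 of 6 against 16.4%, and KRT8 and KRT17 in YA, 2 of 7 against 11.2%. These 3 tables have no skin. In UN, KRT20 was intestine-high, 1 of 18 against 0.974%, and in HC1, 0 of 22 against 2.96%. In HC1 the intestine reached 10 CPM and 4 times every liver for KRT8, KRT19 and KRT1, and their skin values of 3102, 160.3 and 18.6 CPM kept them out of the class. No keratin was liver-high in any table, where 3.13% of all rows were in HC1, 4.58% in HC3, 4.77% in LE, 3.28% in QU, 3.35% in UN and 5.67% in YA. KRT17 was skin-high in UN and intestine-high in LE and YA, and KRT20 was skin-high in HC3 and intestine-high in QU and UN.

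**Figure D4:**
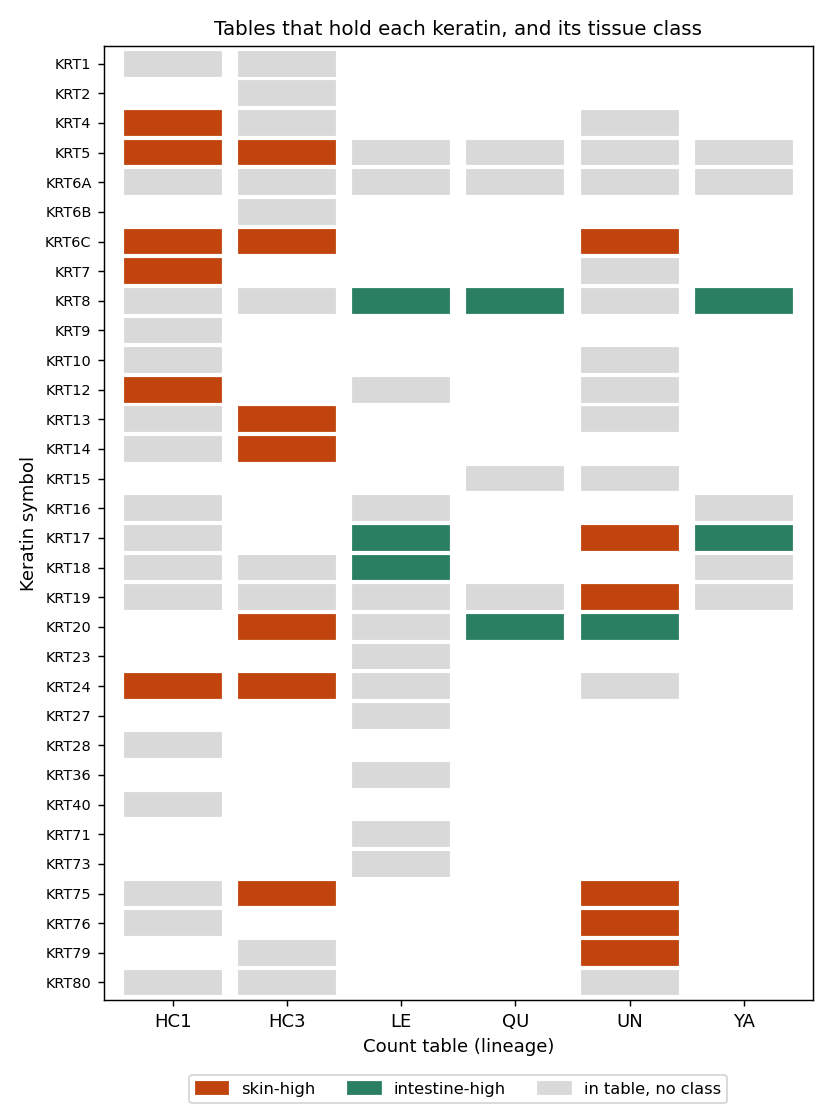
Presence of each keratin symbol (rows) in each table (columns), with red for skin-high, green for intestine-high, light grey for symbols in the table with no class and white for symbols not in the table. KRT6C is red in all 3 skin tables, KRT8 is green in LE, QU and YA, and no symbol is in all tables with 1 class.

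Skin was compared with liver over the 4736 genes tested that HC1, HC3 and UN share, with lineage as a term, by edgeR's quasi-likelihood test with Benjamini-Hochberg adjustment. All 10 keratins in this set passed the filter on low counts. KRT5 and KRT6C were called higher in skin, 2 of 10, where 3.97% of genes were called higher and 1.35% lower. The log2 fold change of KRT5 was 10.23 ± 2.02 (SE; adjusted p = 0.0214) and that of KRT6C was 11.14 ± 2.67 (adjusted p = 0.0412). All 10 keratins had a positive log2 fold change, with a median of 4.11 beside 0.74 for all genes. As that median of all genes is positive, most genes were positive too, and KRT6A and KRT8 lay below it. The sign alone thus says little about keratins. KRT13 (4.15 ± 1.14, adjusted p = 0.0658), KRT24 (4.49 ± 1.42, adjusted p = 0.106), KRT19 (2.13 ± 0.83, adjusted p = 0.179) and KRT4 (11.41 ± 4.58, adjusted p = 0.190) had unadjusted p-values under 0.05 and were not called. KRT75 stood at 4.07 ± 1.87 (adjusted p = 0.257). KRT80, KRT6A and KRT8 lay at 0.97, 0.54 and 0.10, with adjusted p of 0.736, 0.860 and 0.979, and the signs of KRT6A and KRT8 turned under other settings. KRT8 had at most 22 counts in a library of HC3 or UN, and its log2 fold change in HC1 alone was 1.02. The tables were joined by symbol, and whether a symbol stands for the same gene in each table was not tested.

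Both calls depended on single libraries and on the design. KRT5 was not called without the HC1 skin (adjusted p = 0.112), the HC3 skin (0.161), HC1 liver mms7664 (0.0504) or HC3 livers mms7660 (0.0594) and mms7662 (0.0512), and KRT6C was called in 2 of the 11 fits that left out 1 library, those without HC1 liver mms7664 (adjusted p = 0.0336) or HC3 liver mms7661 (0.0450). With the animal as a block the edgeR fit called no gene, with both keratins at an adjusted p of 0.260 and 865 genes at an unadjusted p under 0.05. DESeq2 called 7 of the 10 keratins, adding KRT4, KRT13, KRT19, KRT24 and KRT75, where it called 24.3% of all genes.

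Intestine was compared with liver over the 2821 genes shared by HC1, LE, QU, UN and YA, of which KRT5, KRT6A, KRT8 and KRT19 are keratins. No keratin was called by edgeR, 0 of 4, where 3.90% of genes were called higher and 1.03% lower, and 1 of the 4 had an unadjusted p under 0.05. That was KRT8, at 2.50 ± 0.97 on the log2 scale (adjusted p = 0.153), beside a median of 0.85 for all genes. KRT8 was called by DESeq2 (adjusted p = 0.000528), with median-of-ratios size factors (0.0466), with whole-table library sizes (0.0214) and without UN liver mms7714 (0.0187). Of all genes, DESeq2 called 36.5%, median-of-ratios factors 12.7% and whole-table sizes 19.2%. KRT6A, KRT19 and KRT5 stood at 1.84 ± 1.07, 0.94 ± 0.96 and 0.88 ± 1.07, with adjusted p of 0.324, 0.592 and 0.660.

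Skin was set against intestine in HC1 and UN, the tables with both, over 6595 genes tested, with 14 of the 15 shared keratins passing the filter. Called genes were 0% of those tested by edgeR, with 137 at an unadjusted p under 0.05 and 61 called by DESeq2. KRT6C, KRT4 and KRT76 had the largest log2 fold changes towards skin, at 10.09 ± 3.60, 9.89 ± 3.80 and 6.54 ± 2.56, each with an adjusted p of 0.9998 and an unadjusted p of 0.0246, 0.0332 and 0.0355. DESeq2 called KRT6C (adjusted p = 0.00915). KRT4 rested on the HC1 skin, since without it the log2 fold change was -1.50. In animal mms7665 of HC1 the skin was the highest of 3 tissues for 13 of 22 keratins and the intestine for 7, where 38.8% and 43.7% of all rows were. In animal mms7712 of UN these were 12 and 6 of 18, where 60.1% and 23.1% of all rows were.

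**Figure D5:**
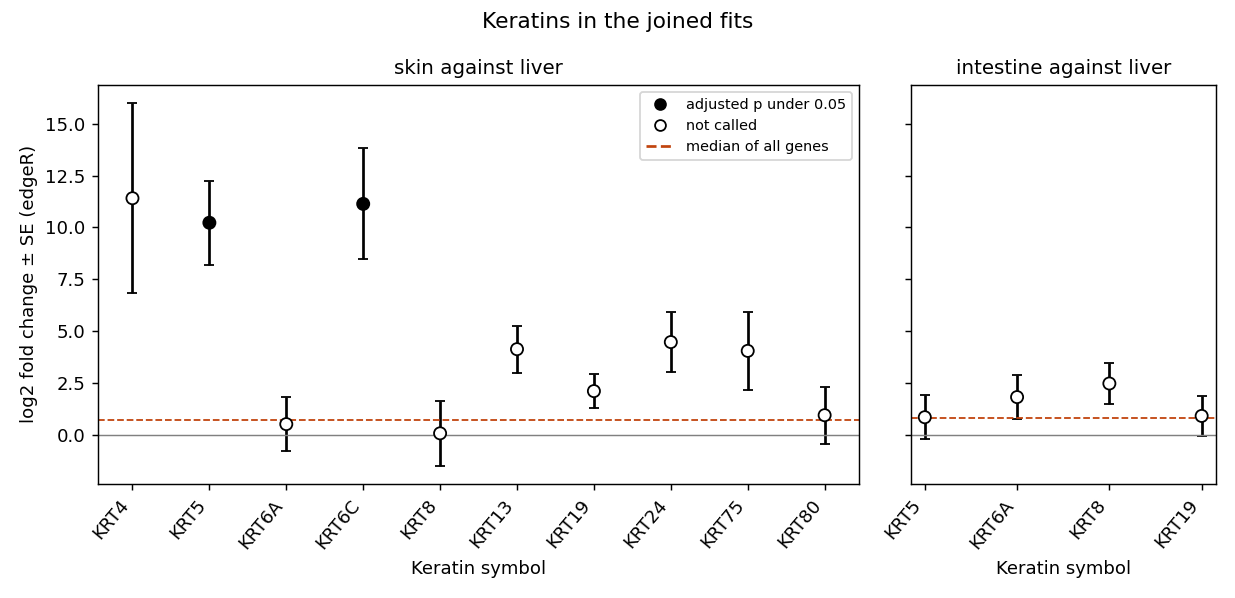
Log2 fold change with its SE from the joined edgeR fits for each keratin tested, skin against liver on the left and intestine against liver on the right, with filled points for an adjusted p under 0.05 and a dashed line at the median of all genes. KRT5 (10.23) and KRT6C (11.14) are the filled points, and no point is filled for intestine.

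Each table was also tested alone, with 1 skin or intestine against its livers, so these tests compare libraries rather than tissues over animals, and the lone library is assumed to vary as the livers do. Of the 22 HC1 keratins 15 passed the filter. KRT4 (17.12 ± 0.91, adjusted p = 0.00520) and KRT7 (7.12 ± 1.12, adjusted p = 0.0336) were called higher in the HC1 skin by edgeR, where 2.21% of genes were. The fitted value of KRT4 depends on the treatment of the zero counts in liver. The filter took all libraries of the table together, and KRT4 passed it with the 12852 counts of the skin. No conclusion is therefore drawn from its call in the skin, nor from its call in the intestine, given next. In the HC1 intestine KRT19 (3.33 ± 0.58, adjusted p = 0.0250), KRT8 (2.67 ± 0.53, adjusted p = 0.0377) and KRT4 (adjusted p = 0.0344, from 4 counts against 0) were called higher, where 2.46% of genes were. In the HC3 skin, where 3.82% of genes were called higher and 14 of 17 keratins passed the filter, KRT5 (12.62 ± 1.27, adjusted p = 0.00544), KRT13 (6.35 ± 1.01, adjusted p = 0.0126), KRT75 (3.58 ± 0.74, adjusted p = 0.0291) and KRT20 (5.85 ± 1.10, adjusted p = 0.0338) were called.

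The calls of HC1 all fell away without liver mms7666, where edgeR called 0 of 7534 genes in any comparison of the table, with 1109 for skin and 1133 for intestine at an unadjusted p under 0.05, with adjusted p of 0.0779 and 0.0808 for KRT4 and KRT7 in skin and 0.0866, 0.133 and 0.220 for KRT19, KRT4 and KRT8 in intestine. KRT4 in intestine was also not called without odd-count liver mms7665 (adjusted p = 0.0541). Those of HC3 fell away without liver mms7660, where edgeR called 0 of 5841 genes, 802 of them at an unadjusted p under 0.05, with adjusted p of 0.137, 0.133, 0.137 and 0.247 for KRT13, KRT5, KRT20 and KRT75, and KRT20 also without liver mms7662 (0.0644). The log2 fold changes stayed positive when a liver was left out. They ran from 6.58 to 8.20 for KRT7 and from 2.48 to 2.96 for KRT8 in HC1. In HC3 they ran from 12.14 to 13.13 for KRT5 and from 5.89 to 6.64 for KRT13. No keratin was called in LE, where edgeR called 2.63% of 6767 genes higher and 1.58% lower, and 2 keratins had an unadjusted p under 0.05. In QU, UN and YA edgeR called 0% of genes, with 898, 869 and 959 genes at an unadjusted p under 0.05 for intestine against liver and 1028 for skin against liver in UN.

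The effect of tissue was compared between tables with an interaction term, added after the data were seen. No gene was called by edgeR, 0 of 4792 for skin and 0 of 2821 for intestine, with 260 and 94 genes at an unadjusted p under 0.05. The smallest keratin p was that of KRT4 in skin, at 0.0320 unadjusted and 0.848 adjusted. The large gaps between tables for KRT4, KRT5 and KRT75 in skin are therefore given as values only.

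An F test in edgeR set the livers of the 6 lineages against each other over 2251 genes. All 4 shared keratins were called, KRT6A (adjusted p = 0.00383), KRT19 (0.00741), KRT8 (0.00767) and KRT5 (0.0150), among 65.4% of all genes, so the share says little about keratins. The mean of the livers of a table ran from 0.187 CPM in UN to 80.7 CPM in LE for KRT5, from 0.0736 CPM in LE to 433 CPM in HC3 for KRT6A, from 0.687 CPM in UN to 991 CPM in QU for KRT8 and from 0.138 CPM in HC3 to 449 CPM in LE for KRT19. Each lineage had its own table, so lineage and table cannot be told apart.

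Several partners of keratins in desmosomes and hemidesmosomes were also higher in skin. The partner list of 20 genes was broader than these junctions and also held KRTCAP2, KRTCAP3, TRADD and SFN, among others. Of 14 partner genes tested, 5 were called higher in skin by edgeR and 0 lower, where 3.97% and 1.35% of all genes were, with a median log2 fold change of 3.31 beside 0.74 for all genes. EPPK1, a linker that binds keratin filaments, stood at 5.72 ± 0.69 (adjusted p = 0.00231) and was called in all 11 fits that left out 1 library. COL17A1, the hemidesmosome collagen, stood at 9.10 ± 1.46 (adjusted p = 0.0107) and was not called without the HC1 skin (0.0850) or the HC3 skin (0.112). DSP, which ties keratins to desmosomes, EVPL, a plakin of the cell envelope, and ITGB4, a hemidesmosome integrin, stood at 5.16, 8.23 and 4.17 (adjusted p of 0.0306, 0.0317 and 0.0359), and each was called in 3 of those 11 fits. In intestine 2 of 8 partners were called higher and 0 lower, where 3.90% and 1.03% of all genes were, with a median of 2.51 beside 0.85. These were EPPK1 (4.67 ± 0.96, adjusted p = 0.0138) and DSP (4.10 ± 0.97, adjusted p = 0.0250), called in 15 and 11 of the 17 fits that left out 1 library. The level of DSP differed between skins as keratin symbols did, at 13923 CPM in HC1, 13.3 CPM in HC3 and 12359 CPM in UN.

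Other intermediate filament genes and regulators of epithelia gave fewer calls than the partners by number, but fewer of them were tested. Of 4 other intermediate filament genes tested in skin, LMNB2 was higher (3.85 ± 0.68, adjusted p = 0.0150) and LMNB1 lower (-2.75 ± 0.58, adjusted p = 0.0249), both encoding nuclear lamins, and 0 of 2 were called in intestine. Called regulators were GRHL1 (4.68 ± 1.09, adjusted p = 0.0359) and KLF5 (4.48 ± 0.92, adjusted p = 0.0245), transcription factors of epithelia, 2 of 10 in skin, with a list median of 0.76 beside 0.74 for all genes, and 0 of 5 in intestine. In the 11 fits that left out 1 library, LMNB2, LMNB1, GRHL1 and KLF5 were called in 9, 5, 3 and 6.

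Markers of other cell types were also called between tissues, where edgeR called 3.97% of all genes higher and 1.35% lower in skin and 3.90% higher and 1.03% lower in intestine. Of the keratinocyte markers 9 of 16 were called higher in skin and 2 of 6 in intestine. This list shares the called genes DSP, EVPL, COL17A1, ITGB4 and GRHL1 with the lists above. It also shares PKP1, PKP3, PPL, SFN, TP63, GRHL3 and ZNF750 with them, so these counts are not independent of those above. Of the hepatocyte markers 5 of 10 were called lower in skin and 4 of 8 in intestine. Skeletal muscle markers summed to 7573 to 9873 CPM in skin, above the 0 to 3643 CPM of livers, and 1 of 8 was called. Enterocyte and goblet markers were called higher for 4 of 6 in intestine and 2 of 6 in skin, biliary markers for 1 of 3 in skin with none tested in intestine, smooth muscle markers for 1 of 4 in skin and 2 of 3 in intestine, and erythroid markers for 0 of 3 in skin and 1 of 2 in intestine. In skin against intestine no member of any list was called. The part of these cells in the keratin values was not tested.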

How the data were processed

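Polyadenylated RNA of adult liver, intestine and skin was sequenced on an Illumina platform, per the labels' protocols, which speak of embryos at the extraction step. BWA and SAMtools are named in the submitters' processing notes, and versions, genome build, annotation and counting rule are not given in the sources used here. The authors deposited raw counts in 6 tables, 1 per lineage, with a symbol and 1 column per library, per the file headers. Samples were mapped to columns by title, since many descriptions name a table other than the sample's own, and no column was left over. Unnamed rows were left out, which held no more than 0.170% of any library. CPM are counts per 1000000 counts of a library, with no correction for transcript length, so levels of different genes are not comparable.

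Tests used edgeR 4.0.16 in R 4.3.3 (glmQLFit, robust, TMM, filterByExpr with a minimum count of 10), with lineage as a term in the joined fits, and Benjamini-Hochberg adjustment over all genes of a comparison at 0.05. The SE is the log2 fold change divided by the square root of F. The scripts were tested on simulated data. Alternatives were median-of-ratios factors, whole-table sizes, DESeq2 1.42.0, no filter, a library type term, leaving out odd-count livers (odd share above 0.3 among counts under 20) or single libraries, and the animal as a block. Added after seeing the data were each liver or table left out, skin against intestine within a table and the interaction. The pairing of tissues comes from the animal numbers in the titles. Livers of a table differed far beyond sampling noise, with a chi-square per degree of freedom of at least 183, so none was merged. Floors cover counting error only. Values by library are given for keratins of 3 or more tables, for the 4 with the highest uncorrected mean CPM in each tissue and for called ones, with low values as upper bounds. Members, lists, classes and tests were chosen with earlier results of these data known. Marker and partner lists were not independent of one another. The labels do not say whether libraries of a group were prepared separately beyond coming from different animals.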

Additional observations from a re-analysis of the deposited data

Results flagged for a closer look

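Among the 5 intestines, 4 keratin values stood apart from the rest, each a single library whose gap to its nearest neighbour was large beside the range of the group. KRT5 was at 597 CPM in the LE intestine, with the next highest intestine at 34.6 CPM. KRT6A was at 413 CPM in the YA intestine, with the next at 73.5 CPM. KRT17 was at 355 CPM in the UN intestine, with the next at 50.1 CPM, among the 4 intestines whose table lists it. The type I sum was 2727 CPM in the UN intestine, with the next at 836 CPM. There were 9 such values examined, and each intestine comes from another table. Chance flags about 1 in 20 groups where values are normally distributed. That was not checked for these CPM, so the chance rate here is not known.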

How the results depend on the processing

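Counts of called genes moved with the settings far more than directions did. For skin against liver edgeR called 252 genes and 2 keratins. Whole-table library sizes gave 792 and 5, DESeq2 1152 and 7, a library type term 106 and 1, and leaving out all of HC1, HC3 or UN gave 86 and 0, 16 and 0, and 128 and 1. Leaving out single libraries gave 30 to 249 genes and 0 to 2 keratins. For intestine against liver the 139 genes and 0 keratins became 357 and 1 with median-of-ratios factors, 543 and 1 with whole-table sizes, 1029 and 1 with DESeq2, 340 genes without odd-count livers, and 60 to 143 genes and 0 to 1 keratins without single libraries. For skin against intestine DESeq2 called 61 genes and 1 keratin. Within tables, keratins called in the HC1 skin were 4 with no filter and 4 without odd-count liver mms7665, beside 6.78% and 8.34% of all genes, and 0 to 6 without another liver, beside 0% and 6.46%. Without another liver they were 0 to 3 in the HC1 intestine, beside 0% and 6.86%, and 0 to 3 in the HC3 skin, beside 0% and 12.1%. In the LE intestine 1 was called without its odd-count liver, beside 25.6%. In UN whole-table sizes gave 2 in intestine and 2 in skin, beside 5.32% and 9.79%, and no filter gave 2 and 5, beside 6.23% and 8.24%. Skin against intestine gave 1 in HC1 and 3 in UN with no filter, beside 0.536% and 0.779%, and 0 to 2 in HC1 without another liver, beside 0% and 0.892%. The cause of these moves was not tested. The F test between livers called 1158 to 1484 genes without single livers, 1909 without odd-count livers, and all 4 keratins each time.

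Scaling shifted the median of all genes on the log2 scale, from 0.74 in skin to 0.93 with median-of-ratios factors and 1.76 with whole-table sizes, and from 0.85 in intestine to 1.14 and 1.43. With whole-table sizes the split of calls was 742 higher and 50 lower in skin, against 188 and 64, and 507 and 36 in intestine, against 110 and 29. With the animal as a replicate block, skin and intestine against liver called 0 genes and 0 keratins, with medians of 1.98 and 2.003. All calls of the joined tissue fits, partners included, were thus lost with the replicate block. The tests within a table and between livers were not fitted with it.

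Signs turned in 14 cases. In skin against liver KRT6A went to -0.11 without odd-count livers, -0.45 with the library type term, -0.26 without the UN skin and -0.22 without the UN table. KRT8 went to -0.47 without odd-count livers, -0.86 with the type term, -0.044 without HC1 liver mms7665, -0.78 without the HC1 skin, -0.23 without UN liver mms7712, -0.21 without the UN skin, -0.96 without the HC1 table and -0.16 without the UN table. KRT19 in intestine went to -0.089 without the HC1 intestine, and KRT4 in skin against intestine to -1.50 without the HC1 skin. Over the fits that left out 1 library, KRT6A ran from -0.26 to 1.32, KRT8 from -0.78 to 0.97, KRT19 from -0.089 to 1.79 and KRT4 from -1.50 to 11.60. No called keratin or partner turned sign in the comparison that called it. Leaving out a liver could not be fitted within QU, UN or YA, since no residual degree of freedom was left. The 1 skin or intestine per table limits all tests. A zero was taken to allow up to 3 counts, which weighs most in a shallow intestine, and that limit was not tested.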

Other observations

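Zero counts of keratins were unevenly spread over livers. In the 6 odd-count livers, 39 of 85 keratin values were 0, or 45.9%, while in the 9 other livers 18 of 139 were, or 12.9%. Over all rows of the tables, 24.3% to 40.8% were at 0 in the odd-count livers and 0.654% to 15.9% in the others, so the difference was not particular to keratins. The odd-count livers are those of the animals that gave skin or intestine, and library type and animal set cannot be told apart.

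KRTAP4-12, a keratin-associated protein of hair in mammals and no member of the family, was listed in HC1 with 4 and 10 counts in livers mms7664 and mms7666 and 0 in the skin and the intestine.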
